A study of Homo sapiens with 32 samples.

Results

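Transcripts of 10 genes of Toll-like receptor signalling were followed in THP-1 cells, a human monocytic leukaemia line, that differed in ATP citrate lyase (ACLY), the enzyme that makes acetyl-CoA from citrate in the cytosol and nucleus. The genes were the receptors TLR1, TLR2, TLR4, TLR5, TLR6 and TLR8, the TLR4 partner LY96, the adaptors MYD88 and TICAM1 and the kinase IRAK1, each taken as the single row that carries its symbol in the gene tables. All 10 were found among the 60107 genes listed, and all 10 were among the 12406 genes that passed the filter of a mean normalized count of at least 10. The data were 32 libraries of 3′ mRNA sequencing (QuantSeq, in which reads come from transcript 3′ ends) in 8 groups of 4. The KO group was an ACLY knockout line, the WT group the knockout carrying wild-type ACLY, the HA group the knockout carrying the catalytically inactive H760A enzyme and the SA group the knockout carrying the S455A enzyme, which lacks the phosphorylated serine. Each line was left untreated or was given 100 ng/ml lipopolysaccharide (LPS) for 3 h according to the labels, whereas the study's paragraph on cell treatment gives a lower dose. The ACLY knockout background was therefore common to all groups, and the wild-type, HA and SA enzymes were brought in by lentivirus under an EF promoter with puromycin selection. Whether the KO cells received an empty virus is not given in the sources used here. There was 1 line per genotype, so other differences between lines cannot be told apart from the ACLY genotype, and nothing in the labels says whether the 4 libraries of a group came from separate experiments, so the p-values measure the spread between these libraries, which may be technical.

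Toll-like receptors sense parts of microbes at the cell surface or inside endosomes. TLR4, together with LY96 (also called MD-2), binds LPS; TLR2 pairs with TLR1 or TLR6 to bind bacterial lipopeptides, TLR5 binds flagellin, and TLR8 binds single-stranded RNA in endosomes. All of these receptors signal through MYD88 and the IRAK kinases to NF-kappaB, and TLR4 signals in addition through TICAM1 (TRIF), which leads to interferon genes.

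The libraries held 6504099 to 14750815 reads on genes. Levels are given as normalized counts, the recovered reads divided by 1 set of size factors for all 32 libraries, and they were compared within a gene only. All 10 monocytic markers (LYZ, CD33, SPI1, CD68, FCER1G, TYROBP, CSF1R, ITGAM, MNDA and CTSS) stood above a normalized count of 10 in every library, while the markers of T cells, epithelial cells and erythroid cells stayed below 10 in every library. ACLY itself had mean normalized counts of 72.9 to 161 in the 8 groups, 89.7 ± 17.7 in untreated KO and 103 ± 11.5 in untreated WT (SD, n = 4). Since 3′ reads need not fall in the part that was deleted, and a construct need not carry the native 3′ end, the ACLY count is no check of the genotype labels. TNF, a known LPS target, had higher counts in every LPS library than in every untreated library of its own line, and the group means of IL1B, NFKBIA and CXCL8 were higher with LPS in all 4 lines. In bulk RNA, fewer cells that express a gene and less RNA of it per cell cannot be told apart. 1 LPS library, SA LPS replicate 1, stood far from the rest, with 13289 genes detected at equal depth against 17030 to 17310 in the other 3 libraries of its group. In the WT and KO lines, though not in HA and SA, libraries that carry 1 number tended to share their deviations from the group means. This was clearest for number 3, while for numbers 1 and 4 another number was as close in some pairs of groups. For comparisons within WT and KO, the value with the number as a block is therefore given beside the main one wherever it changed a call. The labels name no pairs. Below, partner and paired mean only libraries with the same number, a link read from these same data.

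In the main fit, none of the 10 genes was called in any of the 15 comparisons (limma on log2(normalized count + 1), Benjamini-Hochberg adjusted p below 0.01 over all 12406 genes). An unadjusted p below 0.05 was found in 6 of the 150 tests. TLR8 in KO against WT after LPS came closest to the limit (adjusted p = 0.0215), and it was the only call, 1 of the 150, when limma's voom method was run on the recovered reads. Few genes of any kind were called in most comparisons. For LPS against untreated cells the share of all genes called was 0.25% in WT, 0.572% in KO, 0.403% in HA and 0.492% in SA. For untreated cells it was 2.9% in KO against WT, 2.52% in HA against WT, 0% in SA against WT and 0.226% in KO against HA. For LPS-treated cells it was 3.47% in KO against WT, 2.02% in HA against WT, 0% in SA against WT and 0.00806% in KO against HA. For the LPS response of KO less that of WT it was 0.00806%, and for HA and SA less WT it was 0% in each. With at most 3.47% of all genes called, a count of 0 among 10 genes does not set them apart.

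With the replicate number as a block and only the groups compared in the fit, the spread that was left after pairing was smaller and the same log2 fold changes gave more calls. For KO against WT after LPS, 10.7% of all genes were called in this fit, and 3 of the 10 genes were among them (TLR8, MYD88 and TICAM1), all higher in KO. For untreated KO against WT the share was 5.83% and 1 of the 10 was called (TLR8). For LPS in KO it was 0.935% with 1 of the 10 called (TLR8), and for LPS in WT it was 1.02% with none. The median log2 fold change of the 10 genes was 0.40 in untreated KO against WT and 0.56 after LPS, beside -0.03 and -0.01 over all genes tested. Medians of similar size occurred in other comparisons too. They were 0.63 and 0.82 in KO against HA, untreated and after LPS, which use the same KO libraries. In SA against WT after LPS the median was -0.40, where no gene of any kind was called and the deviant SA LPS replicate 1 took part. Whether a shift of this size is particular to KO was not tested.

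**Figure D1:**
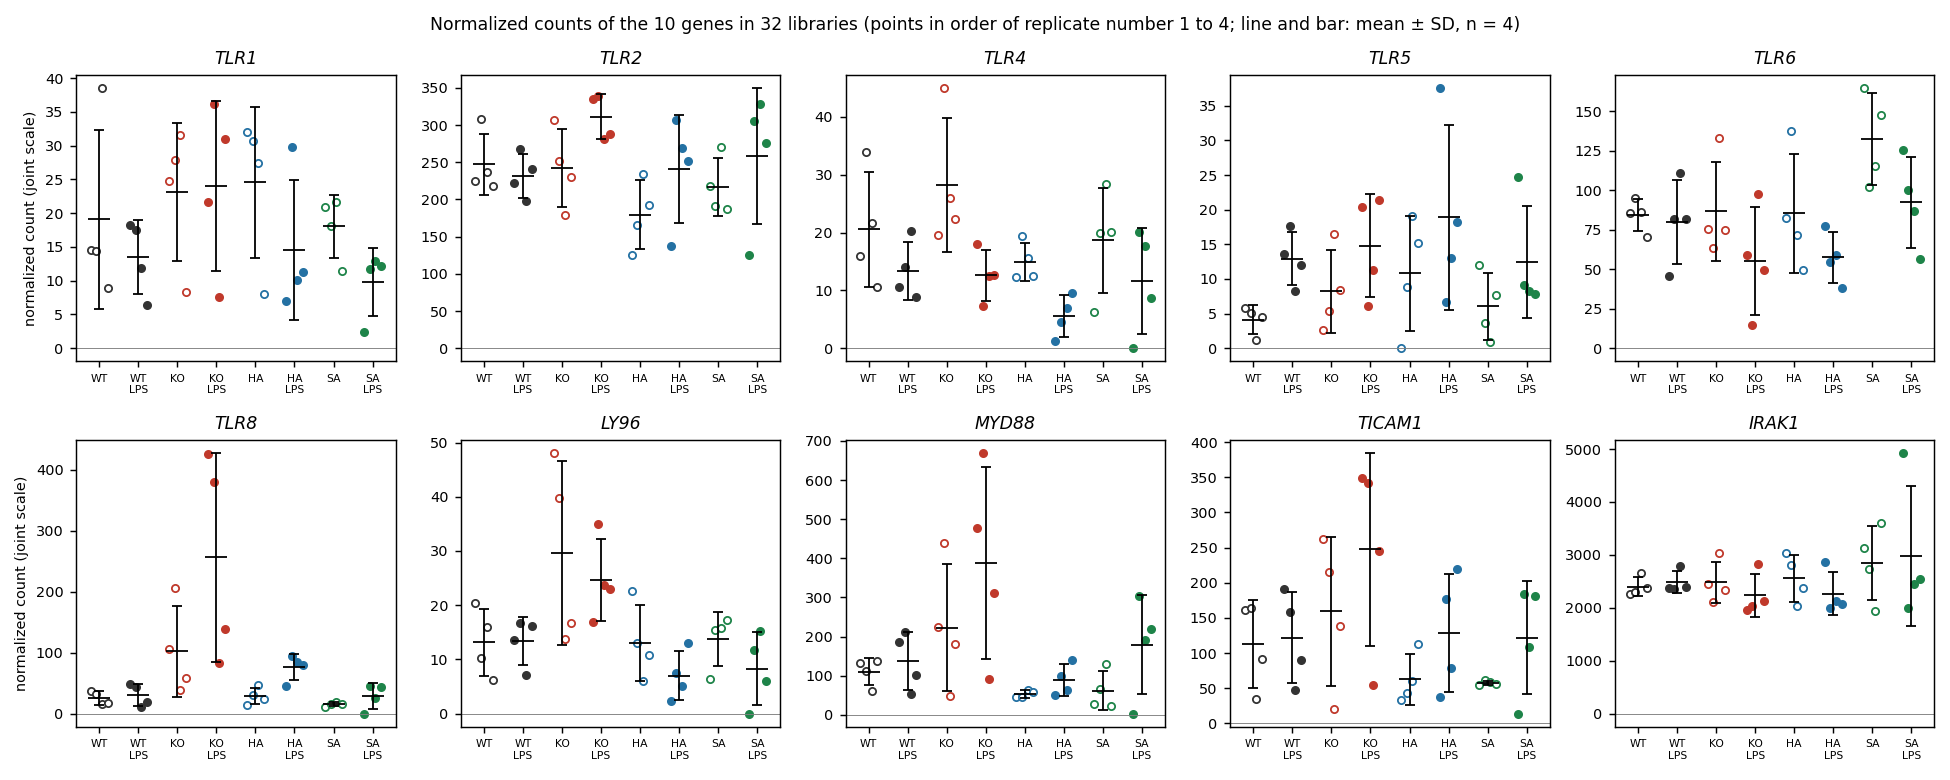
Normalized counts (vertical axis, joint scale) of the 10 genes in the 8 groups. Each point is 1 library, in order of replicate number 1 to 4 from left to right, open for untreated and filled for LPS. The black line and bar are the mean and SD (n = 4). TLR8 stood at 82.7 to 426 in KO LPS and at 0 to 94.1 in the other 3 LPS groups, and replicate 3 was the lowest KO library, untreated and with LPS, for TLR8, MYD88 and TICAM1.

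TLR8, the endosomal receptor for single-stranded RNA, differed most between the lines. In untreated WT its normalized counts were 37.7, 32.3, 15.9 and 16.9 in replicates 1 to 4, and in untreated KO 105, 206, 38.4 and 57.8. With LPS they were 48.6, 43.97, 10.7 and 19.3 in WT and 426, 380, 82.7 and 138 in KO. The lowest KO library lay above the highest WT library in both conditions. In untreated cells this rested on 38.4 in KO replicate 3 against 37.7 in WT replicate 1, from 28 and 26 reads, too close to tell apart. The share of all genes whose libraries separate in this way was not computed, here or for the genes below, so a lack of overlap is description only. In HA the counts were 14.4, 30.8, 46.6 and 24.1 untreated and 44.7, 94.1, 84.4 and 80.0 with LPS. In SA they were 10.8, 15.4, 19.2 and 15.3 untreated and 0, 45.6, 25.9 and 43.4 with LPS, the 0 being SA LPS replicate 1, where a count of 0 reads allows a normalized count of up to 3.52. The untreated HA libraries overlapped with WT, and 3 of the 4 HA LPS libraries lay above all WT LPS libraries.

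The log2 fold change of TLR8 in KO against WT was 1.76 ± 0.80 (SE) in untreated cells, with a limma adjusted p of 0.297, and 2.95 ± 0.80 after LPS. With the replicate block, adjusted p was 0.00224 untreated and 4.65e-07 after LPS. Within a replicate number, TLR8 was 2.79, 6.39, 2.41 and 3.43 times as high in KO as in WT without LPS, and 8.77, 8.64, 7.73 and 7.16 times with LPS. Although the counts themselves ranged from 82.7 to 426 among KO LPS libraries, the LPS ratios thus stayed between 7.16 and 8.77. The blocked LPS call stood without each of the 4 numbers in turn, whereas the blocked untreated call stood only without number 3, with adjusted p up to 0.0187 without another number.

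LPS itself went with higher TLR8 counts in every replicate number of KO, by 1.84 to 4.04 times. The log2 fold change in KO was 1.30 ± 0.80 in the main fit (limma adjusted p = 1.0) and was called in the blocked fit (adjusted p = 0.00797), a call that was lost without any 1 of the 4 numbers (adjusted p 0.0117 to 0.0396). In WT the log2 fold change of TLR8 with LPS was 0.11 ± 0.80, and in HA it was 1.42 ± 0.80, with adjusted p of 1.0 and 0.995. The difference of the LPS response between KO and WT was 1.19 ± 1.13 on the log2 scale, with an adjusted p of 1.0 and of 0.364 with the block, so a larger response in KO was not shown. In HA against WT the TLR8 log2 fold change was 0.15 ± 0.80 untreated and 1.46 ± 0.80 after LPS (limma adjusted p = 0.921 and 0.372). KO and HA, the lines without active ACLY, differed by 1.61 untreated and by 1.49 after LPS, each ± 0.80, with limma adjusted p of 0.489 and 0.511. The 95% interval of the LPS difference ran from -0.15 to 3.14, so both equal levels and a large excess in KO lay within it.

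**Figure D2:**
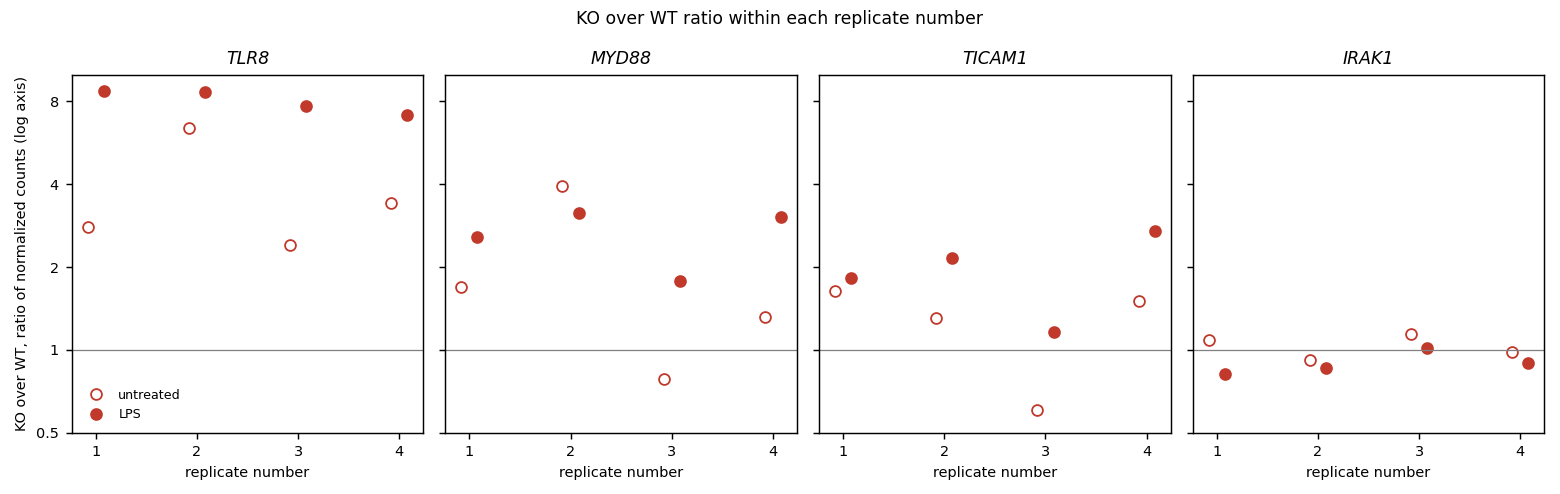
KO over WT ratio of normalized counts (vertical axis, log scale) within each replicate number (horizontal axis) for TLR8, MYD88, TICAM1 and IRAK1. Open points are untreated, filled points LPS, and the grey line marks a ratio of 1. The LPS ratios of TLR8 lay between 7.16 and 8.77, those of MYD88 between 1.77 and 3.15, those of TICAM1 between 1.16 and 2.69 and those of IRAK1 between 0.818 and 1.01.

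MYD88, the adaptor that all receptors on the list use, was higher in KO than in WT after LPS only by the paired comparison. Its normalized counts with LPS were 185, 213, 52.3 and 103 in WT and 478, 669, 92.7 and 312 in KO. The groups overlapped, because KO LPS replicate 3 lay below 3 of the WT LPS libraries, yet in each of the 4 numbers the KO library was above its WT partner, by 2.58, 3.15, 1.77 and 3.03 times. The log2 fold change was 1.35 ± 0.88 with a limma adjusted p of 0.503, and with the block its SE was 0.16 and its adjusted p 7.9e-05. That blocked call stood without each number in turn, with adjusted p of 5.74e-05 to 0.00127. In untreated cells the counts were 132, 111, 61.3 and 137 in WT and 224, 438, 48.0 and 180 in KO, higher in KO in 3 of the 4 numbers, with a log2 fold change of 0.69 ± 0.88 (limma adjusted p = 0.874, and 0.150 with the block). With 1 number left out the blocked value ran from 0.27 to 1.04, with adjusted p up to 0.513, and it was called only without number 3 (adjusted p = 0.00979).

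In HA, MYD88 was at 46.4, 44.5, 63.4 and 59.0 untreated and at 50.6, 100, 64.3 and 140 with LPS. In SA it was at 28.6, 65.2, 130 and 23.0 untreated and at 3.52, 305, 191 and 219 with LPS. The lowest of these was again SA LPS replicate 1, where MYD88 had 3 reads, and the other 3 SA LPS libraries lay above all SA libraries without LPS. KO against HA was 1.68 ± 0.88 untreated and 1.90 ± 0.88 after LPS on the log2 scale, neither called (limma adjusted p = 0.50 and 0.444), and KO and HA libraries overlapped in both conditions. HA against WT was -0.99 untreated and -0.55 after LPS (limma adjusted p = 0.492 and 0.796). SA against WT was -1.10 and -0.48 (adjusted p = 0.998 and 0.916), each of these values with an SE of 0.88.

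TICAM1, the adaptor of the second TLR4 branch, moved much like MYD88 from library to library. Its normalized counts with LPS were 191, 158, 47.6 and 90.8 in WT and 349, 343, 55.1 and 245 in KO, so that the KO library was the higher one in every number, by 1.82, 2.16, 1.16 and 2.69 times. The log2 fold change was 0.90 ± 0.78 with a limma adjusted p of 0.664, and with the block it was called (SE 0.19, adjusted p = 0.00535). Leaving out number 2 or number 4 ended that call (adjusted p up to 0.0379). Untreated counts were 161, 165, 34.1 and 92.3 in WT and 263, 216, 20.6 and 139 in KO, with a log2 fold change of 0.24 ± 0.78 and a limma adjusted p of 0.961. HA stood at 33.0, 42.9, 61.0 and 114 untreated and at 37.6, 177, 79.3 and 220 with LPS. SA stood at 55.2, 61.6, 58.4 and 55.5 untreated, the narrowest group of the 8, and at 14.1, 184, 108 and 181 with LPS. In log2, HA against WT was -0.76 untreated and -0.04 after LPS (limma adjusted p = 0.55 and 0.986). SA against WT was -0.72 and -0.32 (adjusted p = 0.998 and 0.932), each of these values with an SE of 0.78.

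The 5′ flanks of these 3 genes are shown because TLR8, MYD88 and TICAM1 were the ones called higher in KO in the paired fit. They were read from RefSeq on GRCh38.p14, where 8 of the 10 genes had an entry that was used, in the direction of transcription and ending at or before the base ahead of the RefSeq start. For MYD88 only the 30 bases around the matches are given, since they lie within the longer span that GENCODE gives the gene. Capitals mark matches, on either strand, to the interferon-response core (GAAA, any 2 bases and GAAA again), the gamma-activated site TTCNNNGAA or the kappaB consensus.
TLR8, chrX:12906370-12906619, plus strand: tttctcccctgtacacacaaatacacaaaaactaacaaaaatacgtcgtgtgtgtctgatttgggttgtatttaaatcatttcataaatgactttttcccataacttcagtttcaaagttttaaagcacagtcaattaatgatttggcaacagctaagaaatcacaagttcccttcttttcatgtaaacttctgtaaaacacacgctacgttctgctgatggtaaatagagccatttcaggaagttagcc
MYD88, chr3:38138587-38138616, plus strand: gcggcgcTTCTCGGAAAGCGAAAgccggcg
TICAM1, chr19:4831713-4831962, minus strand: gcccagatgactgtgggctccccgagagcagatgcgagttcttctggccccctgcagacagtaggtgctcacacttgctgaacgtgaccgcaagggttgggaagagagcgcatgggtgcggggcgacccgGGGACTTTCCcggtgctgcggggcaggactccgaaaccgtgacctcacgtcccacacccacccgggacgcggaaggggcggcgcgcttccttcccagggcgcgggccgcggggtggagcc

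In the 250 bases ahead of the start, MYD88 held a gamma-activated site at -67 to -59 that overlapped an interferon-response core at -61 to -52. TICAM1 held a kappaB consensus at -120 to -111, and the TLR8 window held none of the 3 motifs. The other 5 genes with an entry, TLR2, TLR4, TLR5, TLR6 and IRAK1, held none of them either. Over 35116 RefSeq promoter windows of the same length, 3.02% held the interferon-response core, 6.57% the gamma-activated site and 5.21% the kappaB consensus. These are matches of letters and were not tested for binding.

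IRAK1, the kinase recruited to MYD88, had the steadiest counts of the 10 genes. Its group means ran from 2235 ± 403 in KO LPS to 2980 ± 1321 in SA LPS (SD, n = 4), a range of 1.33 times, and each group overlapped with its neighbour in the order. The wide SD of SA LPS came with replicate 1, at 4929 against 1997 to 2553 in the other 3 libraries. Between KO and WT its log2 fold change was 0.04 ± 0.21 untreated and -0.16 ± 0.21 after LPS (limma adjusted p = 0.976 and 0.817), and the 95% interval after LPS ran from -0.59 to 0.26.

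**Figure D3:**
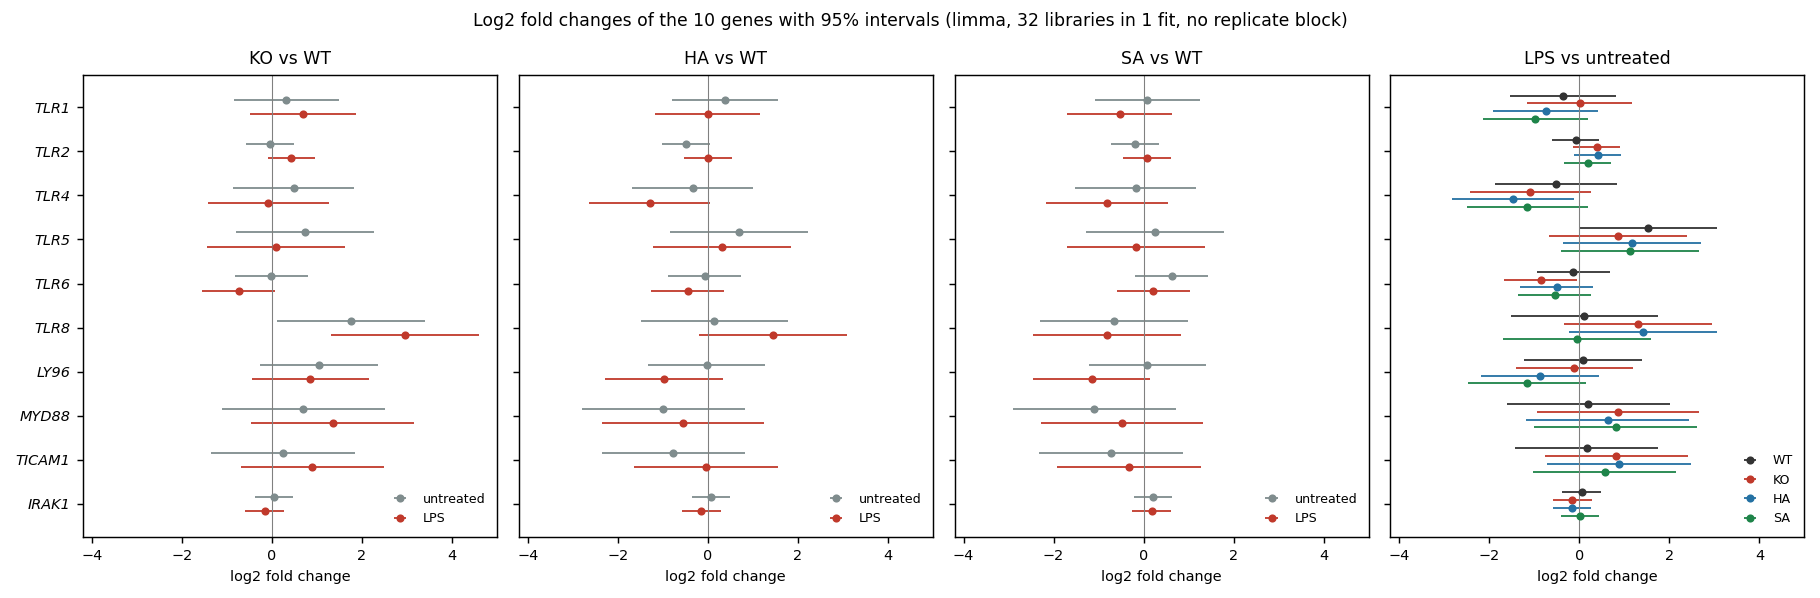
Log2 fold changes (horizontal axis) of the 10 genes (vertical axis) for KO, HA and SA against WT, in grey for untreated and red for LPS, and for LPS against untreated in the 4 lines. Points are limma estimates from the fit of all 32 libraries without a block, and bars are 95% intervals. Only the intervals of TLR8 in KO against WT, TLR6 with LPS in KO and TLR4 with LPS in HA leave out 0, and none of these passed the adjusted limit.

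Of the receptors at the cell surface, TLR2 had the smallest SE, 0.26 on the log2 scale. Its group means ran from 179 ± 46.2 in untreated HA to 311 ± 30.2 in KO LPS, and neighbours in the order of the 8 means overlapped throughout. In KO LPS the 4 libraries, at 282 to 339, lay above the 4 WT LPS libraries, at 197 to 267. On the log2 scale the difference was 0.43, with a limma adjusted p of 0.444 and, with the block, 0.0279, short of the limit of 0.01. In untreated KO against WT it was -0.04 ± 0.26.

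TLR6, which pairs with TLR2, had group means from 55.1 ± 34.2 in KO LPS to 132 ± 28.8 in untreated SA. The untreated SA libraries, at 102 to 165, did not overlap with untreated WT, at 70.1 to 95.1, with a log2 fold change of 0.63 ± 0.40 and a limma adjusted p of 0.998. With LPS the KO library was below its untreated partner in all 4 numbers, at 0.229 to 0.781 times its count, and the log2 fold change was -0.86 ± 0.40 (adjusted p = 0.850, and 0.261 with the block). TLR1, the other partner of TLR2, had group means from 9.79 ± 4.99 in SA LPS to 24.6 ± 11.2 in untreated HA. With LPS the TLR1 library of KO was above its WT partner in 3 of 4 numbers, by a log2 fold change of 0.69 ± 0.57 (limma adjusted p = 0.645). TLR1 and TLR6 share 57 exonic bases at their common 5′ end on chromosome 4, away from their 3′ ends, in GENCODE 44.

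TLR4, the LPS receptor, had low counts, with 0 to 42 reads in a library. Its group mean with LPS was below that without LPS in all 4 lines: 20.54 against 13.4 in WT, 28.3 against 12.6 in KO, 14.97 against 5.56 in HA and 18.7 against 11.6 in SA. The libraries of the 2 conditions did not overlap in KO and HA and overlapped in WT and SA. The log2 fold changes were -0.52, -1.09, -1.48 and -1.16 in WT, KO, HA and SA, each ± 0.66, and none was called (limma adjusted p = 1.0, 1.0, 0.876 and 0.587). TLR5, the flagellin receptor, had the opposite order in all 4 lines, with means of 4.12 against 12.9 in WT, 8.20 against 14.8 in KO, 10.8 against 18.9 in HA and 6.04 against 12.5 in SA, at 0 to 32 reads. In WT the 4 LPS libraries lay above the 4 untreated ones, with a log2 fold change of 1.53 ± 0.75 and a limma adjusted p of 1.0.

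LY96, which holds LPS on TLR4, had 0 to 37 reads in a library. Its mean normalized count was 29.6 ± 16.9 in untreated KO and 24.7 ± 7.55 in KO LPS, the 2 highest groups, and 6.97 ± 4.55 to 13.7 ± 4.96 in the other 6. After LPS the KO libraries, at 16.8 to 35.0, lay above the HA libraries, at 2.35 to 13.0, and above the WT libraries, at 7.13 to 16.7. For KO against HA after LPS the difference in log2 was 1.83 ± 0.64 (unadjusted p = 0.00767, limma adjusted p = 0.271). KO against WT was 1.04 ± 0.64 untreated and 0.85 ± 0.64 after LPS (adjusted p = 0.527 and 0.583, and 0.118 and 0.127 with the block).

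The rest of the pathway was followed with a list of 40 other genes of Toll-like receptor signalling, from receptors to inhibitors, of which 33 passed the filter. In the main fit 3 of the 33 were called higher and none lower in untreated KO against WT, and 2 higher and none lower after LPS. Of all genes, 2.9% and 3.47% were called there. In HA against WT none was called untreated, and 1 higher and 1 lower after LPS, beside 2.52% and 2.02% of all genes. In SA against WT none was called, beside 0% of all genes in both conditions. With LPS, 1 was called higher and 1 lower in each of KO, HA and SA, and none in WT. The shares of all genes called were 0.572%, 0.403%, 0.492% and 0.25%. With LPS in WT the paired fit called 4 higher (TNFAIP3, TNIP1, PELI1 and IKBKE), beside 1.02% of all genes. With LPS in KO it called 4 higher (TNFAIP3, TNIP1, TLR7 and PELI1) and CD14 lower, beside 0.935% of all genes.

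TLR7, the other endosomal receptor for single-stranded RNA, whose gene neighbours TLR8 on the X chromosome, was one of the genes called. Its normalized counts were 10.7 to 23.9 in untreated WT and 42.9 to 101 in untreated KO, and 26.5 to 76.1 in WT LPS and 122 to 236 in KO LPS. The log2 fold change in KO against WT was 1.97 ± 0.36 untreated and 2.20 ± 0.36 after LPS (limma adjusted p = 5.87e-04 and 1.21e-04). In HA against WT after LPS it was 1.67 ± 0.36 (adjusted p = 0.00524), a call lost without any 1 of 6 libraries (adjusted p 0.0152 to 0.032), and the HA LPS libraries, at 89.5 to 162, all lay above WT LPS. In both conditions TLR7 was thus called higher in KO than in WT in the main fit, and TLR8 in the paired one. The untreated calls were the weaker ones. With 1 number left out, the blocked TLR8 call stood only without number 3. TLR7 lost its untreated call with only the groups compared and no block (limma adjusted p = 0.0138). With LPS in KO, the log2 fold change of TLR7 was 1.30, called in the paired fit (limma adjusted p = 0.00262 with the block). With 1 number left out of that fit, it was called only without number 3.

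**Figure D4:**
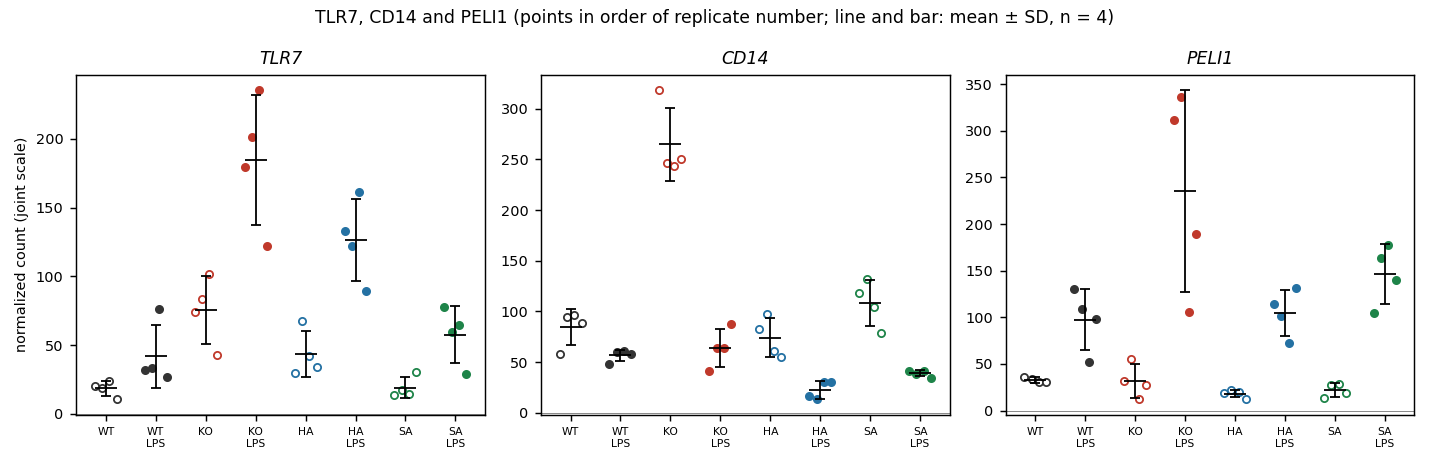
Normalized counts (vertical axis, joint scale) of TLR7, CD14 and PELI1 in the 8 groups, with 1 point for each library in order of replicate number, open for untreated and filled for LPS. The black line and bar are the mean and SD (n = 4). TLR7 was at 122 to 236 in KO LPS and 26.5 to 76.1 in WT LPS, CD14 was at 244 to 319 in untreated KO and at most 132 in every other group, and PELI1 was at 52.3 to 337 in LPS libraries and 12.3 to 55.8 in untreated ones.

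CD14, which hands LPS to TLR4, was at 244 to 319 in untreated KO against 58.1 to 96.5 in untreated WT, a log2 fold change of 1.66 ± 0.26 (limma adjusted p = 6.56e-05), and 1.85 ± 0.26 above HA (adjusted p = 3.48e-04). With LPS it fell by 2.07 in KO, by 1.72 in HA and by 1.43 in SA on the log2 scale, each ± 0.26, with adjusted p of 5.97e-06, 1.47e-04 and 0.00169. In WT its mean was 84.4 untreated and 56.7 with LPS. The WT LPS libraries were at 0.628 to 0.836 times their untreated partners, a change called in neither fit. The call in SA was lost without SA replicate 1 or SA replicate 2 (adjusted p = 0.0104 and 0.0139). After LPS the KO libraries, at 40.9 to 87.4, overlapped with WT, at 48.6 to 60.6, while HA, at 13.4 to 30.4, was called lower than WT (log2 fold change -1.37 ± 0.26, adjusted p = 0.00113). PELI1, a ubiquitin ligase that acts on IRAK kinases, rose with LPS by 2.90 in KO, 2.45 in HA and 2.71 in SA, each ± 0.37 (adjusted p = 1.04e-05, 1.76e-04 and 3.55e-05). In WT its log2 fold change of 1.47 ± 0.37 was called in the paired fit (adjusted p = 0.0989 in the main fit and 3.77e-04 with the block).

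LY86, the partner of the TLR4-related receptor CD180, was higher in untreated KO than in WT by 0.64 ± 0.14 (limma adjusted p = 0.00464). CYLD, a deubiquitinase that restrains NF-kappaB signalling, was higher in KO than in WT after LPS by 0.51 ± 0.12 (adjusted p = 0.00943). LY86 lost its call in 9 of the alternatives tried and CYLD in 16, leaving out single libraries among them. The paired fit called 5 of the 33 higher in untreated KO against WT and 7 after LPS, and none lower. That fit called 5.83% of all genes untreated and 10.7% after LPS. The 5 were LY86, CD180, TNIP1, CD14 and TLR7. The 7 were TAB2, CYLD, TNFAIP3, RIPK1, TNIP1, TLR7 and PELI1.

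Spread among the 4 libraries of a group was large for MYD88, TICAM1 and TLR8, and it was shared between them. Libraries also deviated as a whole: the main axis of the deviations from the group means (principal component) held 52.1% of their variance. On it SA LPS replicate 1 stood at 144, replicate 3 of the WT and KO groups at 49.1 to 78 and HA LPS replicate 1 at 55.3. The other libraries ran from -50.5 to 36.3. How often other genes follow genes detected, or each other, as closely as those below was not computed. To describe the spread of the 10 genes, the group mean was taken off log2(normalized count + 1) in each library. The deviations were set against those of the log2 number of genes detected at equal depth, and against each other, in 13 relations. MYD88 rose and fell with genes detected (Pearson r = 0.831, permutation p = 0.00093, adjusted p = 0.0022; Spearman rho = 0.713, permutation p = 0.0027, adjusted p = 0.0056). So did TICAM1, with r = 0.779 and rho = 0.712 (permutation p = 0.00075 and 0.0037, adjusted p = 0.0022 and 0.006), and TLR8, with r = 0.794 and rho = 0.588 (permutation p = 0.0056 and 0.026, adjusted p = 0.008 and 0.038). IRAK1 went the other way, with r = -0.817 and rho = -0.747 (permutation p = 0.001 and 0.00065, adjusted p = 0.0022 and 0.0017). Without the 2 libraries farthest from the median of genes detected, SA LPS replicate 1 and HA LPS replicate 1, r was 0.700 for MYD88, 0.693 for TICAM1, 0.605 for TLR8 and -0.676 for IRAK1.

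**Figure D5:**
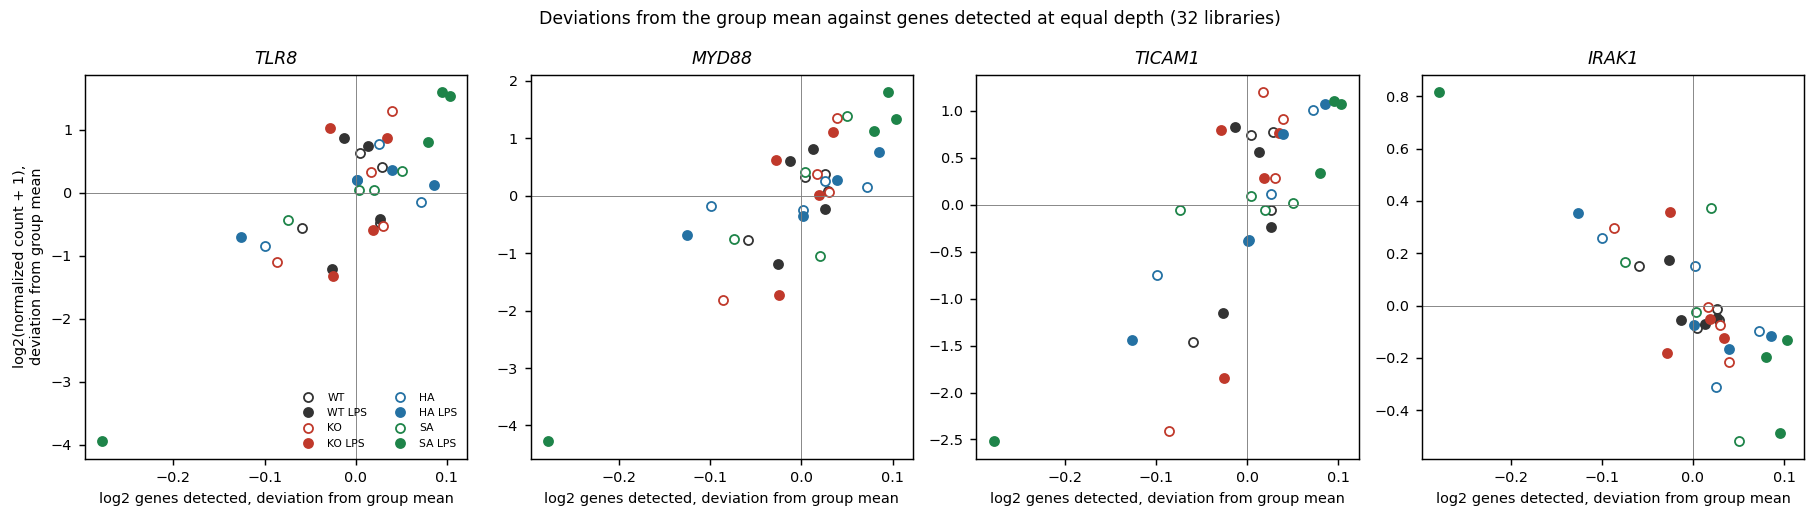
Deviations from the group mean of log2(normalized count + 1) (vertical axis) of TLR8, MYD88, TICAM1 and IRAK1 against those of the log2 number of genes detected at equal depth (horizontal axis) in 32 libraries. Colours are the lines, open points untreated and filled points LPS. The point farthest to the left in each panel is SA LPS replicate 1, low for TLR8, MYD88 and TICAM1 and high for IRAK1. Pearson r was 0.794, 0.831, 0.779 and -0.817.

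Between the genes, the deviations of MYD88 were followed by those of TLR8 (r = 0.912, rho = 0.832, permutation p = 9e-05 and 0.00025, adjusted p = 0.00039 and 0.0011) and of TICAM1 (r = 0.841, rho = 0.799, permutation p = 7e-05 and 0.00025, adjusted p = 0.00039 and 0.0011), and opposed by those of IRAK1 (r = -0.903, rho = -0.835, permutation p = 1e-05 for each, the smallest that the resamples can give, adjusted p = 0.00013 for each). Without the 2 libraries farthest from the median deviation of TLR8, TICAM1 or IRAK1 in turn, r with MYD88 was 0.818, 0.773 and -0.850. The libraries left out were SA LPS replicate 1 each time and replicate 3 of KO LPS, KO and SA in that order. Within the 16 WT and KO libraries r was 0.892 for TLR8 with MYD88, 0.921 for TICAM1 with MYD88 and -0.942 for IRAK1 with MYD88, and within the 16 HA and SA libraries it was 0.921, 0.832 and -0.903. Of the remaining 6 genes, TLR2 followed genes detected (r = 0.819, rho = 0.676, permutation p = 0.0018 and 0.003, adjusted p = 0.0034 and 0.0056) and TLR6 opposed it (r = -0.476, rho = -0.610, permutation p = 0.0023 and 0.00037, adjusted p = 0.0038 and 0.0012). TLR4 and LY96 had r of 0.745 and 0.687 and rho of 0.439 and 0.473 (permutation p = 0.014 and 0.02 for r, 0.047 and 0.029 for rho, adjusted p = 0.018, 0.024, 0.056 and 0.038), and r was 0.435 and 0.391 without SA LPS replicate 1 and HA LPS replicate 1. Split by line into the 16 WT and KO libraries and the 16 HA and SA libraries, r with genes detected was -0.202 and 0.899 for TLR4, which changed sign, 0.351 and 0.770 for LY96, 0.451 and 0.914 for TLR8, 0.573 and 0.867 for TLR2, 0.721 and 0.888 for MYD88, 0.757 and 0.941 for TICAM1 and -0.711 and -0.840 for IRAK1. TLR1 also changed sign, at -0.287 and 0.479, while TLR6 was at -0.532 and -0.61 and TLR5 at -0.145 and -0.189. The difference between the lines in these values was not tested. TLR1 and TLR5 had r of 0.247 and -0.179 and rho of 0.09 and -0.27 (permutation p = 0.3 and 0.33 for r, 0.65 and 0.14 for rho, adjusted p from 0.15 to 0.65). The permutations kept the replicate numbers of WT and KO together, and the part of genes detected in the differences between lines was not tested beyond the fit with it as a covariate, where TLR8 was called in KO against WT in both conditions (log2 fold change 1.96 untreated and 3.34 after LPS, limma adjusted p = 0.0078 and 1.07e-05) and in HA against WT after LPS (2.32, adjusted p = 0.00289). That fit called 5.12%, 7.21% and 3.91% of all genes in these 3 comparisons.

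The genes whose levels were most like those of each of the 10 over the 32 libraries are given as a description, by Pearson r of log2(normalized count + 1), and points share the library effect described above. For MYD88 they were ZFAND3 (0.964), CTNND1 (0.951) and ACSL1 (0.939). For TLR8 they were TAP1 (0.936), NOD2 (0.933) and SNX2 (0.930). TAP1 is a peptide transporter of antigen presentation and NOD2 a cytosolic sensor of bacterial peptidoglycan. For TICAM1 they were MYL12A (0.948), CUL4B (0.941) and UBE2A (0.939), and for IRAK1 TIMM13 (0.927), MCM5 (0.927) and NDUFV1 (0.920). TLR2 was most like EBNA1BP2 (0.859), RBM26 (0.857) and PLEKHF2 (0.853), and TLR6 most like TRIM58 (0.831), RXRA (0.807) and ZMIZ1 (0.792). TLR4 was most like TUBB2A (0.822), SLC7A7 (0.775) and CCR2 (0.775), and LY96 most like TUBB2A (0.826), ZNF682 (0.800) and LILRB4 (0.795). The highest r was lower for TLR1, with SLC25A43 (0.734), RARA (0.670) and CHAMP1 (0.666), and for TLR5, with GRAMD2B (0.726), AF117829.1 (0.680) and ADSSL1 (0.654).

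In GENCODE 44 on GRCh38, TLR8 (ENSG00000101916) spans chrX:12906620-12923169 on the plus strand, MYD88 (ENSG00000172936) chr3:38138552-38143024 on the plus strand and TICAM1 (ENSG00000127666) chr19:4815932-4831712 on the minus strand. TLR8 is overlapped by the antisense gene TLR8-AS1 but shares no exonic base with it, and TLR8-AS1 had normalized counts of at most 3.47 in every library. MYD88, TICAM1, IRAK1, TLR2 and TLR5 are overlapped by no other gene.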

How the data were processed

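RNA of 32 THP-1 cultures, 4 in each of 8 groups named in the labels, was sequenced with QuantSeq 3′ FWD kits. Per the study's methods, Bbduk trimmed the reads, STAR placed them on GRCh38, HTSeq-count counted them, and the authors tested with DESeq2 at an adjusted p of 0.01. Versions, the annotation release and the strand setting are not given in the sources used here. The authors deposited normalized counts, written with decimal commas. In every library 100.0% of them were whole multiples of 1 number within 0.05 reads, which recovered the reads. The authors had normalized each line separately, so recovered reads were rescaled with median-of-ratios factors over all 32 libraries. The 92 spike-in rows were left out.

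Genes with a mean deposited count of at least 10 were taken as log2(normalized count + 1) and fitted with limma 3.58.1 (R 4.3.3), using 8 group means, a trend on expression and Benjamini-Hochberg adjustment over 12406 genes, and called at an adjusted p below 0.01. Log2 fold changes on this scale understate the change of low counts. Same-numbered libraries correlated in their deviations from the group means at 0.124 to 0.723 in every pair of WT and KO groups compared, and at -0.616 to 0.581 in pairs with an HA or SA library, so the replicate block was read for WT and KO alone. Between KO LPS and WT LPS, number 3 correlated at 0.723, and at most at -0.127 with another number. For number 1 these values were 0.199 and 0.339, for number 2 0.520 and 0.429 and for number 4 0.179 and 0.177. The relations of deviations used 100000 permutations within groups (two-sided). The result of 1 list of cell markers is not reported here. The 10 genes, the pathway list, the markers and the motifs were chosen with earlier results of these data known. Named genes were the 10 genes, list genes called in the main fit of any comparison and the 3 genes most like each of the 10. List genes called in the paired fit of WT and KO groups were named too, chosen after their values were seen. ACLY, TNF, CXCL8, IL1B and NFKBIA were named as a check of the labels. Reads are not independent molecules, and floors of 3 reads cover counting error only.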

Additional observations from a re-analysis of the deposited data

Results flagged for a closer look

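Over the 10 genes in 8 groups, 5 of 80 groups had a library far from its other 3 by Dixon's test at the 95% level, where chance alone flags about 1 in 20 groups. TLR1 was at 2.35 in SA LPS replicate 1 against 11.7 to 13.0 in the other 3, and TLR5 was at 24.7 there against 7.80 to 9.12. LY96 was at 6.34 in SA replicate 1 against 15.4 to 17.2. IRAK1 was at 2793 in WT LPS replicate 3 against 2357 to 2393, and at 2870 in HA LPS replicate 1 against 2000 to 2132. All values are normalized counts.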

How the results depend on the processing

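The number of the 10 genes called was 0 in all 15 comparisons of the main fit. It stayed 0 under the deposited scale, a pseudocount of 0.5, filters at a mean count of 1 and of 50, a fit of only the groups compared, the replicate block over all 32 libraries, scaling to total reads and each library left out in turn. For KO against WT after LPS it became 1, in each case TLR8, under a pseudocount of 5, under voom, with genes detected as a covariate and without the library with the fewest genes detected in each group, with log2 fold changes of 2.76, 2.98, 3.34 and 2.21, in fits that called 3.74%, 3.47%, 7.21% and 5.27% of all genes. With the covariate it was also 1 for untreated KO against WT and for HA against WT after LPS, where 5.12% and 3.91% of all genes were called. With the replicate block and only the groups compared it was 3 for KO against WT after LPS and 1 for untreated KO against WT and for LPS in KO. With a replicate number left out of that block it was 2 to 3 after LPS and 0 to 2 untreated, the 2 being TLR8 and MYD88 without number 3, where 8.77% of all genes were called. The cause was not tested. Scaling to total reads, voom, the covariate, the removal of the library with the fewest genes and the block without a number were chosen after seeing the data. The planned edgeR, DESeq2 and TMM alternatives were not run, because the decimal commas kept the values from being registered as counts.

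Of 3340 values of the 10 genes under all alternatives, 222 had another sign than in the main fit, and 0 of those were called. TLR8 with LPS in WT (0.11) ran from -0.18 to 0.51 with 1 library left out and was -0.14 with the covariate. TLR8 in untreated HA against WT (0.15) ran from -0.11 to 0.43, and TICAM1 in untreated KO against WT (0.24) from -0.25 to 1.05. The deposited scale moved the median of all genes by 0.092 to 0.266 in comparisons between lines. Higher and lower calls over all genes went from 223 and 137 to 185 and 184 in KO against WT, from 176 and 137 to 406 and 97 in HA against WT and from 25 and 3 to 10 and 18 in KO against HA without LPS, and from 265 and 165 to 222 and 253, from 144 and 106 to 280 and 72 and from 1 and 0 to 2 and 58 with LPS. With only the groups compared and no block, 10 calls of the pathway list were lost (adjusted p 0.0138 to 0.0973): CD14 with LPS in HA and SA, PELI1 with LPS in KO and SA, LY86 and TLR7 in untreated KO against WT, CYLD in KO against WT after LPS, CD14 and TLR7 in HA against WT after LPS and CD14 in untreated KO against HA. Adding the replicate block to that fit brought back the 4 of KO and WT libraries and none of the 6 with HA or SA, where numbers do not pair libraries. TLR1, TLR4, TLR5 and LY96 had at most 42 reads in a library and SE of 0.57 to 0.75, which limits what could be called. The SE was larger still for MYD88 (0.88), TLR8 (0.80) and TICAM1 (0.78), which had up to 555, 354 and 308 reads in a library.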
